A study of Mus musculus with 4 samples.

Results

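ELF1 is an ETS-family transcription factor, and its binding was profiled by ChIP-seq, the sequencing of immunoprecipitated chromatin, in bone-marrow-derived mouse macrophages exposed for 6 h to lipopolysaccharide (LPS), a bacterial cell-wall component that pushes them to the inflammatory M1 state. The regions described here are the autosomal peaks (chromosomes 1 to 19) that the authors annotated as intergenic and that lie at most 100 kb from the nearest transcription start site. They number 2356 of the 5526 peaks in the wild-type (WT) list, or 42.6%, and 2391 of the 5559 peaks in the Elf1 knockout (KO) list, or 43.0%. Together they are 4747 of 11085 peaks. They are called near-gene intergenic peaks below, and all percentages are of that class unless another base is named.

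The series has 4 libraries, 1 immunoprecipitated (IP) and 1 input library from WT macrophages and the same from Elf1 KO macrophages, and both genotypes received LPS. The labels give neither strain, sex nor age of the mice, nor how Elf1 was disrupted, nor how many animals or cultures stand behind a library. The 2 IP peak lists were used, and each was called against the input of its own genotype. Neither genotype has a replicate IP library. No test between them was therefore made, and all intervals are exact 95% intervals that cover counting error only. Peak lists do not measure ELF1 itself, so the genotype rests on the labels, and no near-gene intergenic peak of either list had Elf1 as its nearest gene.

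As background, ETS factors recognise short DNA sites built around GGAA, and ELF1 prefers the longer form CCGGAAGT. In macrophages the ETS factor PU.1 opens many enhancers, which are regulatory stretches that lie between or inside genes, and LPS brings NF-kB, AP-1 and interferon regulatory factors to them. Peaks between genes but close to a start site are where such distal elements are usually sought. An antibody signal that is also present in knockout cells does not come from its target, provided that the target is absent there.

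The first set of sequences shows every near-gene intergenic peak with CCGGAAGT, on either strand, within 100 bp of its summit. The WT list held 2 such peaks and the KO list held 2. The lines give 61 bases of the GRCm38 plus strand around the site, named by the nearest gene, and the capitals mark the site, which in each case reads on the minus strand.
WT Gm24977, chr4:25601886-25601946: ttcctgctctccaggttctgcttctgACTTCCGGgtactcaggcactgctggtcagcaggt
WT Gm11998, chr11:11528931-11528991: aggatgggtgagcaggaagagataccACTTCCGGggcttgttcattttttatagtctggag
KO Gm15534, chr6:65008101-65008161: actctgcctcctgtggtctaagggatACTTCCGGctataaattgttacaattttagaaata
KO Gm7639, chr8:67076187-67076247: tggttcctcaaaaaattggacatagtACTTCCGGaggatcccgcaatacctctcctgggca
The WT site near Gm24977, a small RNA gene, lay 1 bp from the summit, and the one near the long non-coding gene Gm11998 lay 90 bp from it. The KO sites, near the pseudogenes Gm15534 and Gm7639, lay 49 and 56 bp from their summits. The pileups at these 4 summits were 7, 5, 6 and 6 fragments in that order. These 4 genes, and those of the next set, were picked for their sites after the data were seen.

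The second set shows NF-kB sites, searched as GGGA, any base, then TTTCC on either strand, since NF-kB is the main factor that LPS activates. The WT list held 6 and the KO list 2. The 3 shown are the one nearest to Irak1bp1, which encodes a binding partner of the receptor kinase IRAK1, and the pair whose site is centred on the summit. The capitals mark the site, on the GRCm38 plus strand.
WT Irak1bp1, chr9:82787513-82787573: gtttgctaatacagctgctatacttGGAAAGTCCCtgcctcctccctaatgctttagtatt
WT Gm8143, chr6:53147620-53147680: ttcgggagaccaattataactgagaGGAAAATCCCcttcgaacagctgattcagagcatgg
KO Pclo, chr5:14445490-14445550: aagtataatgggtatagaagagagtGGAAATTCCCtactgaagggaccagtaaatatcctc
The Irak1bp1 peak lay 41999 bp upstream of the start site and had a pileup of 6 fragments. The Gm8143 and Pclo peaks each had 7. Pclo encodes the presynaptic protein Piccolo.

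The third set shows 2 kinds of strong site that recurred in both genotypes. Each line gives the GRCm38 plus strand from 50 bp before to 50 bp after the WT summit. The capitals mark a run of CA or GT pairs near Hes5 and of GGAAT, seen here as ATTCC, near AC173485.1.
Hes5, chr4:154947015-154947115: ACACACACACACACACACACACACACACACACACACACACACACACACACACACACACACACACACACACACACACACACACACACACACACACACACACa
AC173485.1, chr17:4626283-4626383: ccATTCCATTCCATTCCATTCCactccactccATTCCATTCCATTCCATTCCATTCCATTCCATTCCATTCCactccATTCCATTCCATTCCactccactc
Both summits lie inside simple repeats.

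The fourth set shows what lay under peaks near genes of LPS signalling and under strong peaks of 1 list. Each line gives the GRCm38 plus strand from 50 bp before to 50 bp after the summit, and no base is in capitals because none of the 5 motifs searched occurs in these windows.
WT Traf6, chr2:101667094-101667194: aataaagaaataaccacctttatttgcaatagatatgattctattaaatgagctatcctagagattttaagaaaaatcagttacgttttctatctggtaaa
WT Il12b, chr11:44429480-44429580: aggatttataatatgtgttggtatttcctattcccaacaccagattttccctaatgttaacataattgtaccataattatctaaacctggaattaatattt
WT Platr2, chr13:65773128-65773228: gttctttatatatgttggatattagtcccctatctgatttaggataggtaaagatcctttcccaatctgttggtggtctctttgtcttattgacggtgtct
KO Map3k7, chr4:31929395-31929495: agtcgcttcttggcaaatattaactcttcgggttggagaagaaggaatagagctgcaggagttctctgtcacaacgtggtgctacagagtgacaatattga
KO Utp18, chr11:93805416-93805516: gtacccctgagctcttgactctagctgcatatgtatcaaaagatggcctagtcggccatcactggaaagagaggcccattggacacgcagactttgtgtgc
The Traf6 and Il12b windows, taken to 100 bp on either side, were AT-rich, with 30.3% and 29.4% GC, the WT window at Platr2 had 37.8%, and the KO windows at Map3k7 and Utp18 had 42.3% and 54.2%. By the genome's repeat masking, the Platr2 and Utp18 peaks lay wholly in repeats. Masking covered 8.25% of the Traf6 peak, 15.7% of the Il12b peak and 0% of the Map3k7 peak.

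Most near-gene intergenic peaks were shallow in both genotypes. The pileup, the authors' count of fragments over the summit, was never below 5, and its median was 6 fragments in WT (interval 6 to 6) and 7 in KO (7 to 7). In the WT list 381 peaks had 5 fragments, 858 had 6, 610 had 7, 260 had 8 and 108 had 9. In the KO list the counts were 332, 815, 623, 319 and 127. A pileup of 8 or less was thus found in 89.5% of WT and 87.4% of KO members. The authors' fold enrichment, which equals the pileup plus 1 over a local background plus 1, had a median of 3.50 in WT and 3.42 in KO. The local background recovered from it was close to 1 fragment, with medians of 1.03 and 1.06. Its first quartile equalled its lowest value, 1.00 in WT and 1.05 in KO, so many peaks share a floor that differs between the lists. Each median fold is that of 6 fragments over the floor of its list. Median widths were 239 and 247 bp. The authors' q, a p-value adjusted over a list, was 0.05 or below for 131 WT peaks (5.56%, interval 4.67 to 6.56) and 139 KO peaks (5.81%, 4.91 to 6.83). Over all autosomal peaks the shares were 5.16% in WT and 5.73% in KO, so near-gene intergenic peaks passed about as often as peaks in general.

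**Figure D1:**
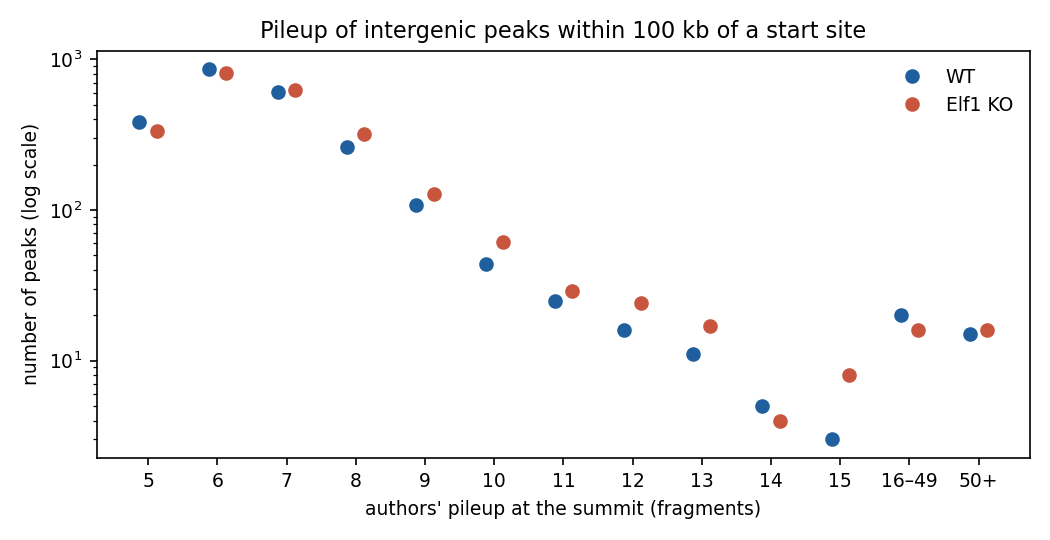
Number of near-gene intergenic peaks (y axis, log scale) at each pileup in fragments (x axis, the last 2 classes pooled), for WT (blue) and Elf1 KO (red), 1 library each. Counts fall steeply from 6 fragments in both lists, from 858 WT and 815 KO peaks at 6 fragments to 108 and 127 at 9.

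Peaks of 10 or more fragments numbered 139 in WT (5.90%, 4.98 to 6.93) and 175 in KO (7.32%, 6.31 to 8.44). Among intergenic peaks beyond 100 kb the shares were 2.48% (1.42 to 3.997) and 4.67% (3.07 to 6.76), and among intronic peaks 4.55% and 6.50%. The WT interval near genes lies above that of the WT peaks beyond 100 kb, and the KO intervals overlap. Tall peaks lay mostly in repeats. The genome's repeat masking covered 50% or more of the peak in 79.1% of WT and 80.6% of KO members of 10 or more fragments, against 27.6% and 30.2% of the members below 10. Tall peaks also had a raised background. It exceeded 2 fragments in 56.8% of the WT and 54.9% of the KO members of 10 or more, against 0.767% and 0.812% of the rest. This contrast is partly set by which peaks were listed, because a shallow peak over a high background reaches only a low −log10 p. The WT peak at Actr3, with 10 fragments over 3.04, had a −log10 p of 3.49. The KO peak at Pclo, with 7 over 1.66, also had 3.49. What repeats and background contribute to the tall peaks was not tested. By side, 5.81% of upstream and 6.02% of downstream WT members had 10 or more, as did 7.33% and 7.31% of KO members, with overlapping intervals.

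Upstream peaks outnumbered downstream ones in both genotypes, close to the proportion of the sequence available. Upstream means before the nearest start site on the strand of its gene, and downstream means past it and, by the authors' annotation, outside the gene. Upstream members were 1342 in WT (56.96%, 54.9 to 59.0) and 1324 in KO (55.4%, 53.4 to 57.4). Of the autosomal sequence within 100 kb of a start site and outside genes and the 2 kb before them, 996.7 Mb in all, 57.7% lies upstream. The WT interval includes that share and the KO interval ends just below it. Per Mb of such sequence, the WT list had 2.33 upstream and 2.40 downstream peaks, and the KO list had 2.30 (2.18 to 2.43) and 2.53 (2.38 to 2.69). The authors' promoter class takes up nearly all peaks in the 2 kb before a start site, which left 1 WT and 2 KO members under 2000 bp upstream.

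The split by side depended on the kind of nearest gene. Where it was protein-coding, 382 of 521 WT members (73.3%) and 381 of 544 KO members (70.0%, 66.0 to 73.9) were upstream, and 75.7% of the sequence nearest to coding genes is upstream, since their bodies take up the sequence past the start. In KO the density past coding genes, 2.66 peaks per Mb (2.27 to 3.10), was above that before them, 2.00 (1.80 to 2.21), with intervals only just apart. In WT the densities were 2.27 (1.91 to 2.68) and 2.00 (1.81 to 2.22), with overlapping intervals. The peak counts keep members that touch gene bodies (2.05% of all KO members), which the available sequence leaves out. What these add to the KO gap was not tested. Near pseudogenes, where 50.0% of the sequence is upstream, the densities before and after the start site were 2.60 and 2.48 in WT and 2.62 and 2.55 in KO.

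The median distance to the nearest start site was 25.3 kb in WT (23.8 to 26.8) and 24.1 kb in KO (22.6 to 25.4), with quartiles of 10.9 and 49.1 kb in WT and 10.6 and 47.1 kb in KO. Upstream members lay a median of 24.2 kb away in WT and 22.6 kb in KO, and downstream members 26.8 and 25.8 kb. From 1 kb outward, with both sides pooled, peaks became denser with distance in WT, and in KO out to 25 to 50 kb. In WT the density was 2.00 per Mb (1.75 to 2.27) at 1 to 5 kb, 2.00 at 5 to 10 kb, 2.24 at 10 to 25 kb, 2.59 at 25 to 50 kb and 2.75 (2.53 to 2.98) at 50 to 100 kb. In KO it was 2.07 (1.81 to 2.35), 2.12, 2.38, 2.59 and 2.57 (2.36 to 2.80). From 1 to 5 kb to 50 to 100 kb, upstream density went from 1.97 to 2.87 in WT and from 1.86 to 2.52 in KO, with separate intervals. Downstream it went from 2.04 to 2.61 in WT and from 2.42 to 2.63 in KO, with overlapping intervals. Beyond 100 kb it was 3.75 (3.47 to 4.05) in WT and 3.24 (2.98 to 3.52) in KO, against 2.36 and 2.40 for all near-gene intergenic peaks. Under 1 kb, 3.78 Mb is available, all of it downstream. There lay 6 downstream WT members (1.59 per Mb, 0.583 to 3.46) and 10 downstream KO members (2.65 per Mb, 1.27 to 4.87). These intervals overlap those of every class out to 100 kb. With the upstream peak at Zfp985 the KO members under 1 kb numbered 11. The KO peaks at Gm23781 and Gm39397 touch genes, which the available sequence leaves out.

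**Figure D2:**
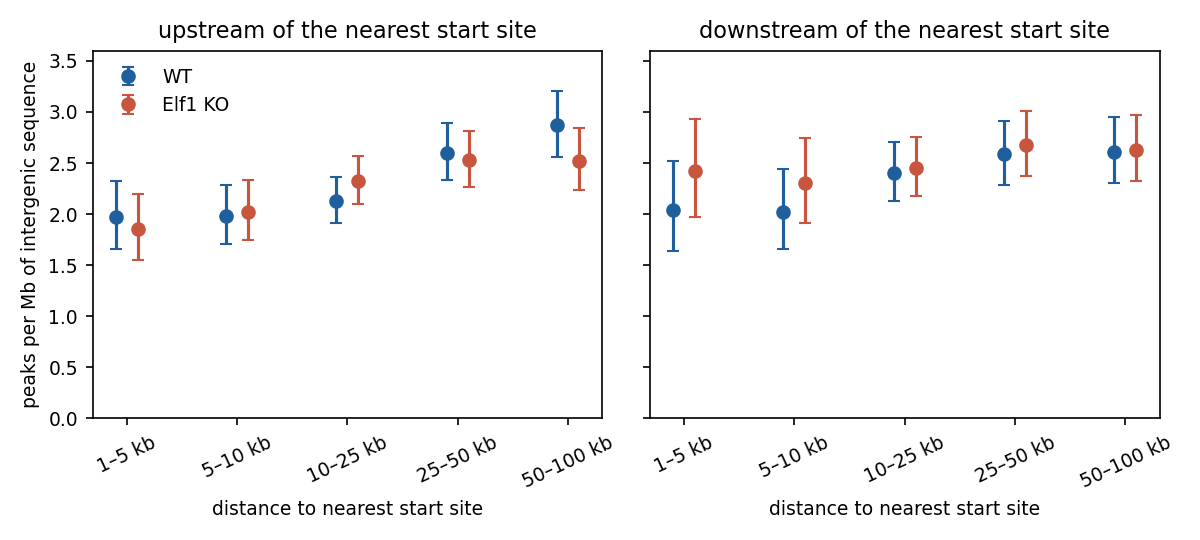
Near-gene intergenic peaks per Mb of intergenic sequence in the same class (y axis), by distance to the nearest start site (x axis), upstream (left) and downstream (right), for WT (blue) and Elf1 KO (red). Bars are exact 95% Poisson intervals of 1 library each. WT upstream rises from 1.97 at 1 to 5 kb to 2.87 at 50 to 100 kb, and KO downstream goes from 2.42 to 2.63 with overlapping intervals.

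Base composition moved with distance. The median GC content of windows of the same length, 100 bp to either side of a centre, taken every 1000 bp from the available sequence was 42.3% at 5 to 10 kb and 39.3% at 50 to 100 kb. Within windows under 35% GC, WT peaks numbered 4.11 per Mb (3.55 to 4.73) under 10 kb and 4.35 (3.97 to 4.76) at 25 to 100 kb, with overlapping intervals. In the class of 40 to 45% the WT density still rose, from 1.58 (1.29 to 1.92) to 2.45 (2.16 to 2.77). For KO the intervals of the same 2 distances overlapped in each of the 4 GC classes, from 2.86 against 3.01 under 35% to 1.13 against 1.17 at 45% or more.

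The 2 lists differed in base composition. The summit window had a median GC of 36.8% in WT (36.3 to 37.3) and 38.8% in KO (38.8 to 39.3), while the windows 1000 bp to either side had 39.3% and 39.8% and the available sequence 41.3%. GC was lower at the summit than the mean of its flanks in 64.8% of WT (62.8 to 66.7) and 57.1% of KO members (55.0 to 59.0). In sequence under 35% GC the WT density was 4.28 peaks per Mb (4.00 to 4.57) and the KO density 3.01 (2.78 to 3.25). At 35 to 40% it was 2.99 and 3.10, with overlapping intervals. The order turned at 40 to 45%, with 2.11 (1.93 to 2.30) in WT and 2.85 (2.64 to 3.07) in KO, and at 45% or more, with 0.805 (0.709 to 0.910) and 1.13 (1.01 to 1.25). Genotype and library cannot be told apart here, since each genotype is 1 library.

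**Figure D3:**
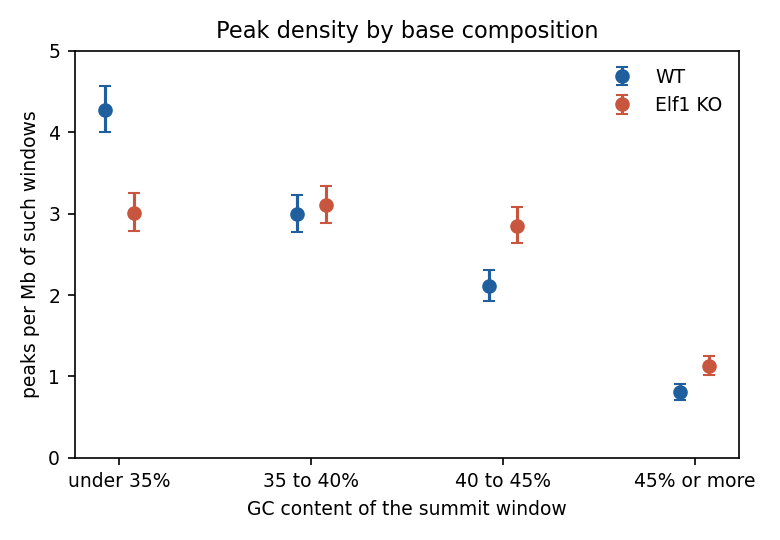
Near-gene intergenic peaks per Mb of windows of the same GC class (y axis) by GC content of the summit window (100 bp to either side) (x axis), for WT (blue) and Elf1 KO (red), with exact 95% Poisson intervals. WT density falls from 4.28 under 35% GC to 0.805 at 45% or more, and KO is lower than WT in the first class and higher in the last 2.

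Motif shares of macrophage factors at the summits did not differ from those of the available sequence beyond counting error. For the ETS and NF-kB sites, with 6 or fewer peaks per list, the intervals are too wide to show that the shares are equal. The 5 motifs were counted on both strands, CCGGAAGT for ELF-type ETS sites, GAGGAAGT for PU.1, TGANTCA for AP-1, the NF-kB site given above and, for interferon response elements, GAAA, any 2 bases, then GAAA. The first 2 end in the same letters but cannot match at the same bases of a strand. The ETS site occurred in 2 of 2356 WT windows (0.0849%, 0.0103 to 0.306) and 2 of 2391 KO windows (0.0836%, 0.0101 to 0.302), against 0.0968% of the available windows of the same length. PU.1 sites lay in 39 WT windows (1.66%, 1.18 to 2.26) and 35 KO windows (1.46%), against 1.25% of available windows, with flanks at 1.36% and 1.59%. AP-1 sites lay in 154 WT (6.54%, 5.57 to 7.61) and 165 KO windows (6.90%, 5.92 to 7.99), against 6.01%. NF-kB sites lay in 6 WT windows (0.255%, 0.0935 to 0.553) and 2 KO windows (0.0836%, 0.0101 to 0.302), against 0.154%. Interferon response elements lay in 3.31% and 3.47%, against 3.46%. A match is only a description of the letters.

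**Figure D4:**
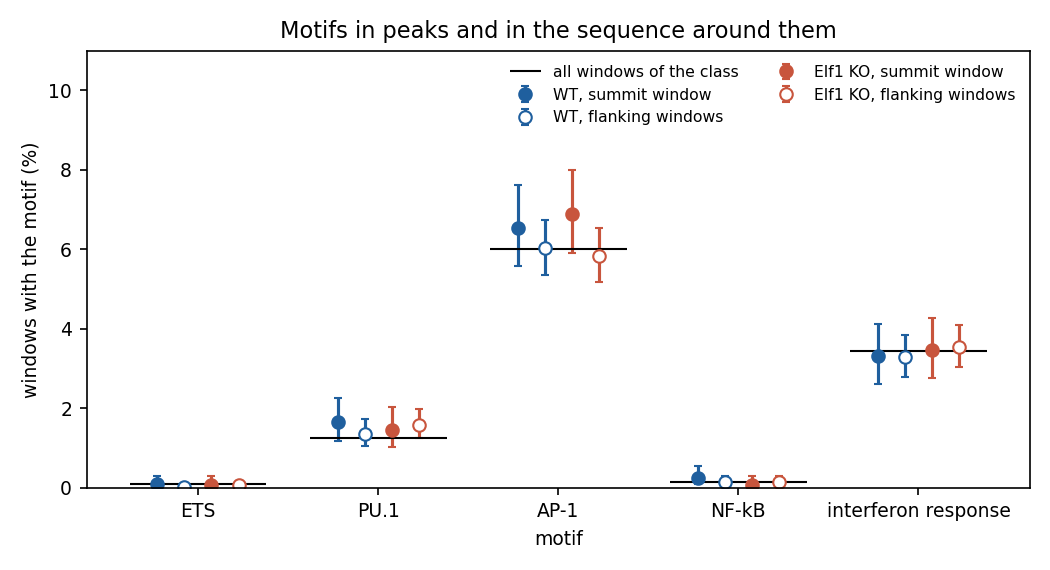
Share of windows (100 bp to either side of the centre) that hold each motif (y axis, %) for the 5 motifs (x axis), at the summit (filled) and 1000 bp to either side (open), in WT (blue) and Elf1 KO (red) near-gene intergenic peaks, with exact 95% Clopper-Pearson intervals. Black lines give the share in all available windows, and every summit interval spans its line, for example 6.54% and 6.90% for AP-1 against 6.01%.

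Few positions recurred in the other genotype. An overlap of at least 1 bp with a peak of the other list was found for 22 WT members (0.934%, 0.586 to 1.41) and 22 KO members (0.920%, 0.578 to 1.39), against 1.04% and 1.07% of all autosomal peaks, which is about the same share. These are 22 positions that were members in both lists, 14 of them upstream. By sequence 14 were CA/GT repeats, 1 was the GGAAT repeat and 7 were neither of these simple repeats, though most of the 7 lay in other masked repeats. Of the 15 WT members with a fold of 10 or more 14 overlapped a KO peak, as did all 14 such KO members a WT peak. The exception, named here because of its value, was a CA/GT repeat 11938 bp upstream of the small RNA gene Gm25044, with 35 fragments in WT. Hes5, a Notch-responsive repressor gene, had its CA/GT peak 13.9 kb upstream of the start site, with 31 fragments and a fold of 13.6 in the WT list and 52 fragments and a fold of 22.8 in the KO list. The GGAAT repeat, 8.6 kb upstream of AC173485.1, had 428 fragments in WT and 255 in KO.

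At the CA/GT repeats the KO pileup was the higher in 12 of 14, the WT pileup in 1 and the pair was equal in 1. The lowest, median and highest pileups were 17, 67.5 and 216 fragments in WT and 17, 74.5 and 207 in KO. Depth is not given in the sources used here, so these pileups could not be put on a common scale. The floor of the recovered background was 1.00 in WT and 1.05 in KO, and whether it follows depth was not tested. By the fold, which is scaled to the local background, WT was the higher in 6 of the 14, and the median folds were 28.6 in WT and 28.8 in KO. The WT pileup was higher at Gm49220 (216 and 207) and equal at Gm22326 (17 and 17). Among the larger gaps, 4632415L05Rik had 51 in WT and 72 in KO, AC114824.1 had 120 and 151, and 1700010I14Rik had 140 and 175. The CA/GT summits lay 4 to 90 bp apart between genotypes.

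Of the 7 other recurrent positions, 6 were weak. The exception lay 26.4 kb downstream of the start site of Mrgprd, a Mas-related receptor gene of sensory neurons. It had 351 fragments over a background of 215 in WT and 359 over 197 in KO, so the folds were 1.63 and 1.81. The rest had 7 to 13 fragments in WT and 6 to 12 in KO, at Gm24160 (7 and 6), Gm33354 (11 and 9), Gm47823 (13 and 11), Gm49326 (9 and 12), Gm6785 (7 and 8) and Gm26500 (9 and 10). Only Gm26500 in WT and Gm49326 in KO passed a q of 0.05 among these 6. The peaks at Mrgprd, Gm33354, Gm47823, Gm49326 and Gm26500 lay wholly in masked repeats in both lists. The Gm24160 peak was 83.3% masked in WT and 16.9% in KO, and the Gm6785 peak 0% and 27.2%.

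**Figure D5:**
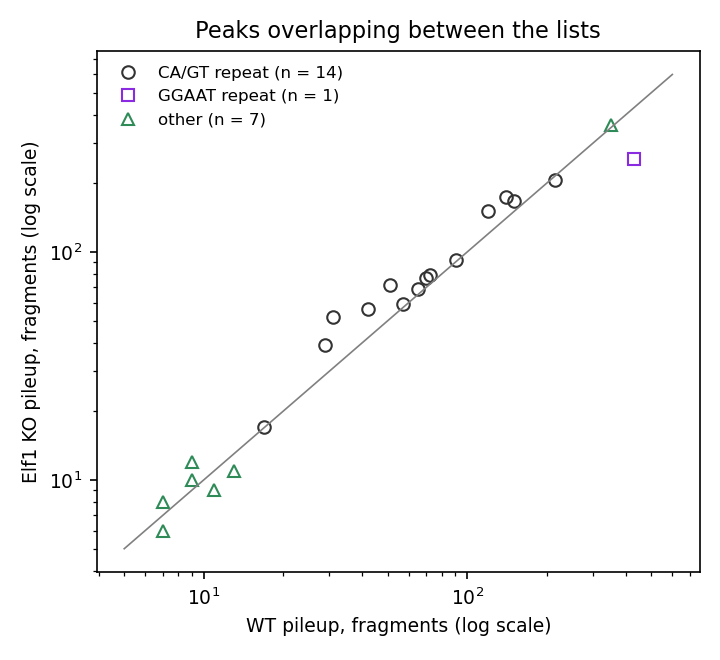
Pileup in WT (x axis) and Elf1 KO (y axis), in fragments on log scales, of the 22 near-gene intergenic peaks that overlap between the lists: CA/GT repeats (circles, 14), the GGAAT repeat (square, 1) and others (triangles, 7). The line marks equal values; 12 of the 14 CA/GT repeats lie above it, though pileups are not scaled to depth and by fold WT is the higher in 6 of the 14, and the GGAAT repeat, at 428 and 255, lies below.

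The nearest genes were mostly not coding genes. Pseudogenes were nearest to 39.5% of WT (37.5 to 41.5) and 39.6% of KO members, protein-coding genes to 22.1% (20.5 to 23.8) and 22.8%, and long non-coding genes to 21.1% and 23.3%. Small RNA genes and immune gene segments were nearest to 17.2% (15.7 to 18.8) of WT and 14.1% (12.7 to 15.6) of KO members. The available sequence falls to these classes at 36.7%, 25.3%, 24.6% and 13.4%. Per Mb, the small RNA class had 3.04 WT peaks (2.75 to 3.35) and 2.53 KO peaks (2.26 to 2.81), and the coding class 2.07 (1.89 to 2.25) and 2.16 (1.98 to 2.35). Predicted or unnamed genes were nearest to 76.8% of WT and 75.4% of KO members.

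The WT members had 2061 nearest genes and the KO members 2114, of which 449 were in both lists, 21.8% and 21.2% of each. Genes in both lists had more intergenic sequence around them, with a median of 109 kb nearest to their start site, against 60.5 kb for genes in 1 list and 4.11 kb for genes in neither. For protein-coding genes the counts were 479 in WT and 507 in KO, with 68 in both, or 14.2% and 13.4% of each. These are 2.31% and 2.44% of the 20780 autosomal coding genes.

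Few genes of the fixed lists were the nearest gene of a member. In the WT list 1 of 35 genes of TLR4 and NF-kB signalling and 1 of 36 inflammatory effectors were nearest to a member, and none of 36 interferon genes, 34 macrophage lineage genes, 26 genes of alternative activation, 18 described ELF1 targets or 24 ETS family genes. In the KO list the counts, in the same order, were 1 of 35, 0 of 36, 0 of 36, 0 of 34, 1 of 26, 0 of 18 and 1 of 24. A single gene of 35 is 2.86%, close to the share of all coding genes, so these counts are not a result about the lists. Markers of other cell types gave 1 of 7 T cell genes (Cd3e), 1 of 6 neutrophil genes (S100a8), 1 of 4 neuronal genes (Snap25), and 0 of 5 B cell and 0 of 4 stromal genes in WT. In KO all 5 of those lists were at 0. A nearby peak does not measure expression.

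Traf6 encodes the ubiquitin ligase that relays Toll-like receptor signals. Its WT peak lay 11.3 kb upstream (chromosome 2, 101667020 to 101667322) with 7 fragments, a fold of 3.78 and a −log10 q of 0.555. Il12b encodes the p40 chain of interleukins 12 and 23. Its WT peak lay 29.5 kb downstream of the start site, past the end of the gene (chromosome 11, 44429447 to 44429676), with 6 fragments and a fold of 3.48. Map3k7 encodes TAK1, the kinase downstream of TRAF6. Its KO peak lay 34.7 kb upstream (chromosome 4, 31929263 to 31929577) with 10 fragments, a fold of 5.37 and a −log10 q of 2.69. Etv1, an ETS factor gene, had a KO peak of 8 fragments 10.6 kb upstream, and Fn1, the fibronectin gene, had a KO peak of 6 fragments 24.7 kb upstream. Of these 5 peaks only the KO peak at Map3k7 passed a q of 0.05. Ccl20, a chemokine gene picked after its values were seen, had 2 WT peaks at and past its end, of 9 fragments 2528 bp and of 6 fragments 4399 bp from the start site.

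Upstream of named genes, the tallest WT peaks were at Tyr (33 fragments), Hes5 (31), Speer4e (18), Nkain2 (14), March4 (14) and Platr2 (13). Tyr encodes tyrosinase, the first enzyme of melanin synthesis, and its peak, 19.4 kb upstream (chromosome 7, 87512812 to 87513059), stood over a background of 8.10 fragments with a fold of 3.74 and a −log10 q of 5.81. Speer4e belongs to a family of testis genes with many near-identical copies, and its peak had a background of 7.36 and a fold of 2.27. Platr2, a non-coding gene of pluripotent cells, had 13 fragments over 1.69, a fold of 5.21 and a −log10 q of 3.34. The peaks of all these genes except Speer4e lay wholly in masked repeats, and that of Speer4e was 85.6% masked.

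Downstream of named genes, the WT list led with Mrgprd (351), Olfr289-ps1 (10), Actr3 (10), Rassf9 (9), Casp12 (9) and Oxgr1 (9). Actr3 encodes a subunit of the actin-nucleating Arp2/3 complex, and its peak lay 76.5 kb past the start site with a fold of 2.72. Casp12, of the inflammatory caspase family, had its peak 80.7 kb past the start site at a fold of 4.74 and a −log10 q of 1.65. Rassf9 had a fold of 4.999 over a background of 1.00 fragments, 67.5 kb away, with 8.91% of the peak masked. Apart from Mrgprd these peaks had 9 or 10 fragments. Predicted genes, which this ranking leaves out, had taller WT downstream peaks, such as 151 fragments at Gm5466 and 61 at Gm10354.

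In the KO list the tallest upstream peaks at named genes were at Hes5 (52 fragments), Pgk1-rs7 (16), Hsfy2 (16), Tbc1d32 (15), Dpp10 (15) and Oog1 (13). Tbc1d32, which acts in cilium assembly, had a fold of 4.46 at 42.1 kb upstream, and Dpp10, which encodes a subunit of potassium channels, had a fold of 3.40 at 99.5 kb. All 6 peaks were wholly masked. The tallest downstream ones were at Mrgprd (359), Vmn1r-ps151 (59), Amd2 (16), Utp18 (15), Obox4-ps23 (15) and Rbm3-ps (15). Utp18, which serves ribosome assembly, had the highest fold of these 6, 5.97, with a −log10 q of 5.23, at 80.3 kb past the start site (chromosome 11, 93805327 to 93805599). The vomeronasal receptor pseudogene Vmn1r-ps151 had 59 fragments over a background of 27.5, a fold of 2.11. Masking covered the whole peak at Mrgprd, Amd2, Utp18 and Rbm3-ps, 56.8% of it at Obox4-ps23 and 27.8% at Vmn1r-ps151.

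The pileup alone did not rank enrichment, as 3 peaks picked after their values were seen show. The tallest near-gene intergenic peak of either list was a KO peak 28.3 kb past the start of the pseudogene Gm27236, with 853 fragments over a background of 341 and a fold of 2.50. In WT, Gm5466 had 151 fragments over 98.6 and a fold of 1.53, and Gm47008 had 44 over 8.10 and a fold of 4.94. None of these 3 overlapped a peak of the other list.

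Most genes had a single member. In the WT list 1804 of 2061 nearest genes had 1 peak, 225 had 2, 26 had 3 and 6 had 4. In the KO list 1876 of 2114 had 1, 209 had 2, 20 had 3, 8 had 4 and 1 had 5. Among coding genes the WT list led with Chrna7 and Gm21119 at 4 peaks each. Chrna7 encodes the alpha-7 nicotinic acetylcholine receptor, and its 4 WT peaks lay 20.6 to 44.2 kb upstream with 6, 5, 6 and 7 fragments, none past a q of 0.05. Gm21119, a predicted gene, was the only coding gene with 3 or more members in both lists. Its 4 WT peaks had 20, 15, 15 and 18 fragments and its 4 KO peaks 14, 20, 14 and 17, all downstream, over backgrounds of 3.35 to 5.49 in WT and 4.97 to 6.58 in KO. The WT and KO peaks did not overlap. Gm10354 and Gm10192 had 3 WT peaks each. A further 32 coding genes had 2 peaks in WT and 35 had 2 in KO. Of these tied genes the summed pileup, and then the name, put Gm7978 first in WT and Hsfy2, Amd2, Tbc1d32 and Gm16513 first in KO. At Gm10354 the pileups of 61, 29 and 33 fragments stood over backgrounds of 34.4, 8.89 and 13.8.

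The members closest to a start site were weak. In WT they were at Gm24369 (400 bp, 6 fragments), the microRNA gene Mir147 (413 bp, 6) and Olfr626-ps1 (646 bp, 5), all downstream. In KO they were at Zfp985, a zinc-finger gene, 22 bp upstream with 6 fragments, and at Gm23781 (259 bp, 7) and Gm39397 (338 bp, 7) downstream. Though annotated as intergenic, each of these KO peaks touches the body of its gene, and the Zfp985 peak spans the start site. None of these 6 passed a q of 0.05. At the other end of the range, the farthest WT member lay 99874 bp from Gm23789 with 7 fragments and the nearest peak outside the limit 100058 bp from Gm47492 with 12. The farthest KO member lay 99998 bp from Gm4852 with 7 fragments, and the nearest KO peak outside lay 100044 bp from Gm43044, also with 7.

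Density varied among chromosomes by less than a factor of 2 in both lists. It ran from 1.73 peaks per Mb on chromosome 18 to 2.99 on chromosome 10 in WT, and from 1.62 on chromosome 19 to 2.95 on chromosome 9 in KO. The largest differences in peaks per Mb between the lists were on chromosome 9, with 101 WT peaks (2.14 per Mb, 1.74 to 2.60) and 139 KO peaks (2.95, 2.48 to 3.48), and on chromosome 6, with 155 (2.51, 2.13 to 2.93) and 124 (2.00, 1.67 to 2.39). Their intervals overlap.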

How the data were processed

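ChIP-seq libraries of WT and Elf1 KO macrophages, 1 IP and 1 input each, were grouped by the sample titles. The authors trimmed reads with Trimmomatic 0.36, aligned them to GRCm38 using Bowtie2 and dropped duplicates with SAMtools, per the series' design text. Which programs called and annotated the peaks is not given in the sources used here. Per the file headers, the deposited columns hold the summit's pileup signal, a ratio called fold enrichment, −log10 p and q values and gene features. Chromatin was sheared to 200 to 500 bp, per the labels.

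Members were the autosomal peaks whose listed features are all intergenic, at most 100000 bp from the authors' nearest start site. The members and the gene lists were chosen with earlier results of these data known. The authors' distance was within 2 bp of that to the nearest GENCODE M21 start site for 97.9% of WT and 96.8% of KO members. A GENCODE M21 gene body touched 1.99% of WT and 2.05% of KO members, and these were kept.

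The sequence available for peaks was counted on a 10 bp grid of GRCm38, outside genes and the 2 kb before them, with 120 bp of clearance. Its GC content and motifs came from windows of 100 bp to either side of a centre every 1000 bp. A repeat peak had runs of at least 12 bases of CA or GT, or 15 of GGAAT, over 50% or more of its length. The local background was recovered as the pileup plus 1, divided by the fold, minus 1. Shares carry Clopper-Pearson, densities Poisson and medians order-statistic intervals of 95%. The search for the nearest start site and its side, the motif search, the overlap of peaks and the median interval were tested on simulated data. The other steps were not. Some items are not reported here.

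Named genes followed a rule. It took, per genotype and side, the 6 tallest members whose nearest gene is not predicted or unnamed, all overlapped members, the 5 coding genes with the most members per list, and coding genes with 3 or more in both. It added the 3 members closest to a start site, and members near genes of 7 of the 13 lists. Other cell type markers with a member, and the members and peaks next to the 100 kb limit, are named as well. Other names outside the rule are marked as picked after their values were seen. Tools were Python 3.11.15, pandas 2.3.3, NumPy 2.4.6, SciPy 1.17.1, pysam 0.24.0 and matplotlib 3.10.9.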

Additional observations from a re-analysis of the deposited data

Results flagged for a closer look

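Chromosomes X and Y were outside the autosomal class and drew attention because the WT list had 117 intergenic peaks within 100 kb of a start site on Y, against 8 in the KO list. On X the counts ran the other way, with 79 in WT and 265 in KO. The highest pileups there were 9 fragments on Y and 14 on X in WT, and 10 and 30 in KO. The labels give no sex, and its part in these counts was not tested.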

How the results depend on the processing

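The alternatives gave 46 values. Of these 25 stayed near the value reported, meaning inside its 95% interval or, for counts, within 1.5 times it, and 21 moved. Settings that used both sex chromosomes, the GENCODE M21 side, members without an overlap, a pileup of 10 or more and members outside the simple repeats were chosen after seeing the data, and they gave 10 of the 46. The number of peaks stayed within 1.5 times under distance limits of 50 and 200 kb. Where the nearest gene was coding, the upstream share was 73.3% in WT and 70.0% in KO and the median distance 18116 and 18603 bp. Measured to the nearest end of a gene body, the median distance was 19729 and 18454 bp. At a q of 0.05 or below the median pileup was 10 in both lists. The overlapped share was 1.66% and 1.67% within 1000 bp, 12.2% and 11.5% at a q of 0.05 or below in both lists, 12.9% and 10.9% at a pileup of 10 or more, and 0.299% and 0.295% without the simple repeats. The share of coding genes was 1.92% and 2.09% at 50 kb, and 10.7% and 11.5% when every start site within 100 kb of a member counted. Without peaks masked over 50% or more, the median GC in WT was 35.8%. The cause was not tested for these shifts beyond what each setting selects by construction. No paired analysis was possible because each genotype has 1 IP library, and none could be left out. Depth per library is not given in the sources used here, so a missing peak cannot be told from a shallow library.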
